A study of Mus musculus with 6 samples.

Results

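Long intergenic noncoding RNAs (lincRNAs) are transcripts from between the protein-coding genes, usually spliced and polyadenylated, that are not known to encode a protein. Their members were selected on measured values: a row of the deposited table had to carry the biotype lincRNA and to hold 10 or more raw counts in at least 3 of the 6 libraries. The rule took 166 of the 5559 lincRNA rows, among 54532 genes in all. It used the level of a transcript and not the comparison of groups, but it could be met through 1 group alone. In 4 lincRNAs no library of the other group reached 10 counts. Gm43351 and Gm13710 reached 10 in only 1 library of the group where they were lower.

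The study sequenced total RNA of bone-marrow-derived macrophages, phagocytes grown in culture from mouse marrow, after treatment with MSU (monosodium urate, the crystal behind gout attacks). The 3 libraries labelled Tet2 knockout were compared with 3 labelled wild-type, and every library came from MSU-treated cells. The Tet2 enzyme acts on DNA, where it oxidises methyl groups on cytosine, which begins their removal. The labels give neither the allele, the age nor the number of mice behind the libraries, so p-values rest on the spread among the libraries as deposited, which could be technical.

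Macrophages make many lincRNAs during activation. Some act in the nucleus on the structure of speckles and paraspeckles or on neighbouring genes, some bind proteins in the cytoplasm, and others are mainly the hosts from which microRNAs or small nucleolar RNAs are cut. A few rows typed as lincRNA were later found to encode small proteins.

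Total counts ran from 11997104 to 14481843 per library. Tet2 itself, the gene named in the label, stood at 29.3 ± 1.41 CPM (counts relative to library size, scaled by the TMM method; SD, n = 3 libraries) in the libraries labelled wild-type and at 33.7 ± 0.799 in those labelled knockout. Its log2 change was 0.20 with an adjusted p of 0.0159 (edgeR quasi-likelihood test, Benjamini-Hochberg), so its count did not check the label, and directions below are those of the labelled libraries. The 7 macrophage markers were all present, with a summed level of 5444 to 5818 CPM under the wild-type label and 5704 to 5978 under the knockout label. This sum joins changes in both directions, and 6 of the 7 were called. Adgre1 (0.78), Mertk (0.65), Csf1r (0.55) and Fcgr1 (0.20) were higher under the knockout label, and Lyz2 (−0.47) and Cd68 (−0.09) lower. The 6 connective tissue markers were also present in every library, summing to 6775 to 7249 CPM under the wild-type label and to 6513 to 6672 under the knockout label. Markers of B cells, of T and NK cells and of erythroid cells summed to at most 1.12 CPM in any library. The sums of 3 marker lists were higher in every knockout label library than in any wild-type label library. Those of B cells were 0 to 0.248 against 0.303 to 1.12 CPM. The 3 endothelial markers gave 32.8 to 37.5 against 39.6 to 40.7 CPM. Of these, Kdr was called (0.47), Pecam1 was higher without a call (0.70), and Cdh5 went the other way (20.1 to 18.2 CPM, −0.15, not called). The 4 dendritic cell markers gave 3.2 to 4.75 against 4.98 to 6.54 CPM, with Xcr1 called (1.06), Zbtb46 not called (0.09) and Siglech at 0 in all libraries. The part of such cells in the lincRNA results was not tested.

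The lincRNAs were a small fraction of the RNA and most of them were rare. They took 0.165% ± 0.00111 of the counts under the wild-type label and 0.169% ± 0.00226 under the knockout label (exact two-sided permutation p = 0.1, the smallest that 3 against 3 libraries can give). Malat1 took 0.0227% ± 0.000645 and 0.0283% ± 0.00137 of the counts. Without Malat1 the lincRNA shares were 0.142% ± 0.00127 and 0.141% ± 0.0011 (exact p = 0.3). The 5 most abundant lincRNAs held between 51.5% and 54.4% of all lincRNA counts in a library. Per kilobase of transcript, the median tested lincRNA stood at 0.815 CPM, against 6.29 CPM for protein-coding genes.

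Of the 166 lincRNAs, 160 had enough counts for the test of all genes, and the other 6 were at most 0.867 CPM in either group. Between the labels, 32 of the 160 differed at an adjusted p under 0.05 (20%), 18 of them higher under the knockout label and 14 lower. Across all 13175 genes tested, 40.9% were called, 21.6% higher and 19.2% lower, so the lincRNAs' shares of 11.2% higher and 8.75% lower were below the background. The values of the groups did not overlap for 41 lincRNAs (25.6%), against 47.8% of all genes. Leaving out the 4 lincRNAs that reached 10 counts in 1 group only, 30 of 158 were called. These still include lincRNAs, such as Gm43351 and Gm13710, that met the rule through the group where they were higher.

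The smaller share went with lower counts. The median tested lincRNA had a mean of 24.2 counts and a standard error of 0.288 on its log2 change, whereas the median gene had 333 counts and a standard error of 0.0797. Among genes with a mean of 300 or more counts, 7 of 12 lincRNAs (58.3%) and 55.1% of all genes were called. Below a mean of 20 counts, the lincRNAs had 7 of 73 (9.59%) and all genes 13.5%. Between 100 and 300 counts 2 of 13 lincRNAs passed, against 33.3% of all genes. The median lincRNA moved by 0.287 on the log2 scale in either direction, against 0.169 for all genes, although a median of noisy values is widened by their error. With their signs kept, the median change of the lincRNAs was 0.02, with 84 above 0 and 76 below. The difference in share between lincRNAs and other genes was not tested.

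**Figure D1:**
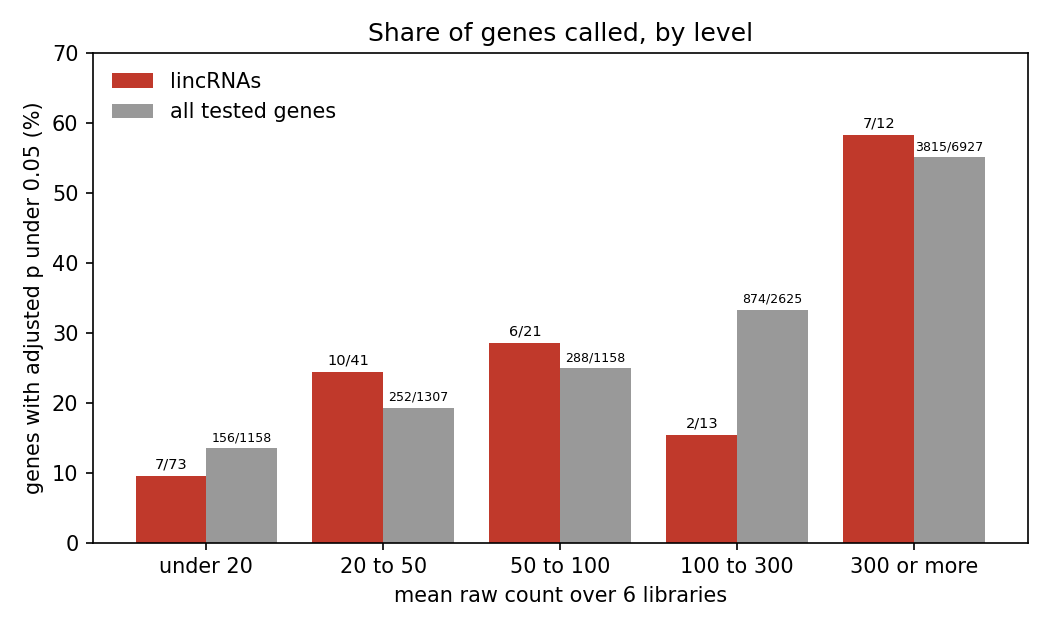
Share of genes with an adjusted p under 0.05 (vertical axis, percent) by the mean raw count over the 6 libraries (horizontal axis). Red bars are lincRNAs and grey bars all tested genes, with the number called over the number tested above each; the lincRNA share goes from 9.59% under 20 counts to 58.3% at 300 or more.

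Antisense and bidirectional-promoter RNAs, the noncoding types nearest to lincRNAs, were taken by the same count rule for comparison. Of 144 tested, 36 were called (25%), 30 of them higher and 6 lower under the knockout label. Their split was one-sided, and that of the lincRNAs, 18 to 14, was not; the difference was not tested. The largest change of a tested lincRNA was −1.85 on the log2 scale, and 7 called lincRNAs changed at least 2-fold, 4 up and 3 down.

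**Figure D2:**
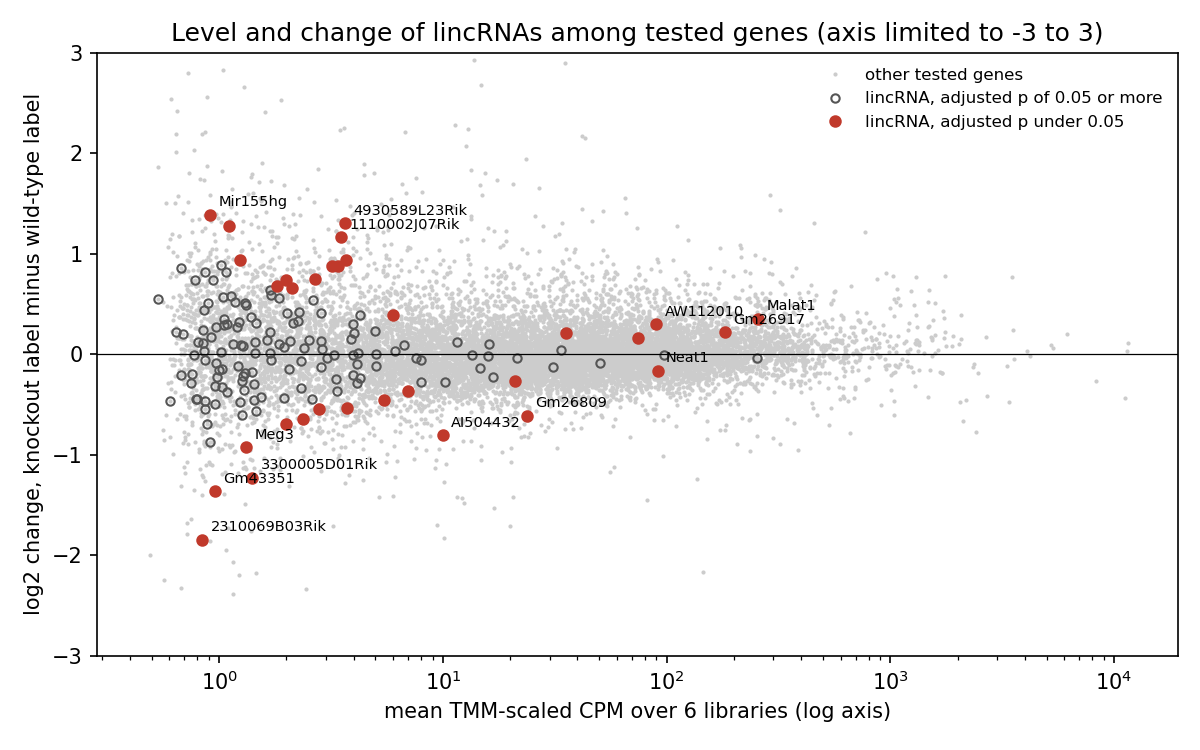
Log2 change between the labels (knockout minus wild-type, vertical axis) against the mean level over the 6 libraries (TMM-scaled CPM, log axis) for all tested genes, of which the grey points beyond 3 in either direction are not drawn. Filled red points are the 32 called lincRNAs and open circles the other tested ones; the called lincRNA changes of at least 2-fold all lie at low levels, and Malat1, the lincRNA with the highest mean level, moved by 0.36.

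Malat1 (ENSMUSG00000092341, chr19:5795690-5802672, minus strand, mm10), a nuclear RNA that gathers in the speckles where splicing factors are stored, had the highest mean level over the 6 libraries and the smallest p of the lincRNAs. It stood at 226, 218 and 229.6 CPM in wild-type label replicates 1, 2 and 3, and at 278, 282 and 304 CPM in knockout label replicates 1, 2 and 3. The lowest knockout label library was above the highest wild-type label library. The change was 0.36 on the log2 scale (SE 0.03, 1.28-fold, edgeR adjusted p = 1.86e-18). The call held in all 14 alternative settings, with log2 changes between 0.32 and 0.38 and adjusted p-values of at most 0.0249.

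Neat1 (ENSMUSG00000092274, chr19:5824708-5845478, minus strand) lies beside Malat1 and is the scaffold RNA of paraspeckles, nuclear bodies that hold back RNAs and proteins during stress. Its levels were 101, 90.9 and 97.1 CPM under the wild-type label and 82.3, 91.1 and 84.9 CPM under the knockout label. Knockout label replicate 2 and wild-type label replicate 2 were nearly equal, so the groups overlapped. The mean fell by 0.16 on the log2 scale (SE 0.04, edgeR adjusted p = 0.00163), a change opposite in sign to that of Malat1. The call was lost at an assumed biological coefficient of variation of 0.1 between libraries (adjusted p = 0.441), in place of the estimated 2.63%.

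AW112010 (ENSMUSG00000075010, chr19:11047617-11050566, minus strand), an RNA induced in activated macrophages whose short open reading frame has been reported to be translated, had the highest level per kilobase of any lincRNA, at 105 CPM per kilobase under the wild-type label and 129 under the knockout label. Its levels were 86.5, 79.1 and 76.5 CPM under the wild-type label and 97.2, 106 and 96 CPM under the knockout label. All 3 knockout label libraries were higher than all 3 wild-type label libraries. The log2 change was 0.30 (SE 0.05, edgeR adjusted p = 1.19e-08), and the call was lost at the assumed coefficient of 0.1 (adjusted p = 0.0794).

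The start regions of Malat1 and AW112010, from 250 bases before to 50 bases after the start, are shown because these abundant, higher lincRNAs differ in how many CpG dinucleotides, the usual site of DNA methylation, they hold there. Both are from RefSeq (GRCm38.p6), minus strand, printed 5′ to 3′ with each CpG in capitals. The windows are chr19:5802623-5802922 for Malat1 and chr19:11050517-11050816 for AW112010.
Malat1: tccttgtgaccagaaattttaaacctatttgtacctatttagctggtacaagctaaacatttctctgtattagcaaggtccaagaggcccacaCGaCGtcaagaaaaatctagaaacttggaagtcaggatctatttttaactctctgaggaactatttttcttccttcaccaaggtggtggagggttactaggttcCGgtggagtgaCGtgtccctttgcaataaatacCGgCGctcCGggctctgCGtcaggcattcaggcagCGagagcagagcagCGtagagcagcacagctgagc
AW112010: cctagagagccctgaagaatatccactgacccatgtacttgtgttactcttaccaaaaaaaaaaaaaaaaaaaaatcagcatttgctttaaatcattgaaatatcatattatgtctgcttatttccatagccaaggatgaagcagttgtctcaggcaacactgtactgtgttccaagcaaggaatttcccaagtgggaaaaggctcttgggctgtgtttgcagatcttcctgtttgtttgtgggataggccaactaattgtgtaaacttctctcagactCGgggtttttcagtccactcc
The Malat1 window holds 10 CpGs and the AW112010 window 1. The median was 7 over 32851 RefSeq promoters of this length and 12 over the 80 lincRNA promoters matched. It was 6.5 in 10 called higher, 11.5 in 6 called lower and 14 in 61 tested but not called. Methylation was not measured, and these counts describe sequence alone.

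Of the 10 most abundant lincRNAs, 6 were called. Beside Malat1, Neat1 and AW112010 these were Gm26917, AU020206 and Dubr, all higher under the knockout label. Gm26917 went from 168 ± 2.45 to 196 ± 13.6 CPM, a log2 change of 0.22 (edgeR adjusted p = 1.08e-07). It ends 13 bases before an 18S ribosomal RNA copy in RefSeq (Rn18s-rs5), so reads from ribosomal RNA could be counted to it or not, and its value is uncertain. AU020206 had a log2 change of 0.17 (adjusted p = 0.00301), which was lost without wild-type label replicate 3 (adjusted p = 0.0705). Dubr, an RNA studied in muscle differentiation, had 0.21 (adjusted p = 0.00706), lost without knockout label replicate 2 (0.0984) or wild-type label replicate 3 (0.0748). All 3 calls were lost at the assumed coefficient of 0.1, with adjusted p-values of 0.228, 0.43 and 0.302.

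The other 4 of the 10 did not pass. The row 2900097C17Rik, which RefSeq names Norad, an abundant cytoplasmic RNA that binds Pumilio proteins, stood at 258 ± 7.42 and 251 ± 1.69 CPM (−0.04 on the log2 scale, adjusted p = 0.347). The row 1700020I14Rik had 97.5 ± 2.02 and 97.2 ± 2.34 CPM. The row 1810058I24Rik, which encodes a mitochondrial micropeptide linked to the Nlrp3 inflammasome and is protein-coding in RefSeq, had 51.7 ± 4.33 and 48.7 ± 1.57 CPM (log2 change −0.08, adjusted p = 0.261). Gm42047 had 33.3 ± 1.76 and 34.3 ± 0.553 CPM. RefSeq matched 117 of the 166 lincRNAs and types 13 of them as protein-coding. Among these are Zfp469, D930016D06Rik (as Thoc2l), Gm26637 and Gm38399 (as Nav1), all called and described below.

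**Figure D3:**
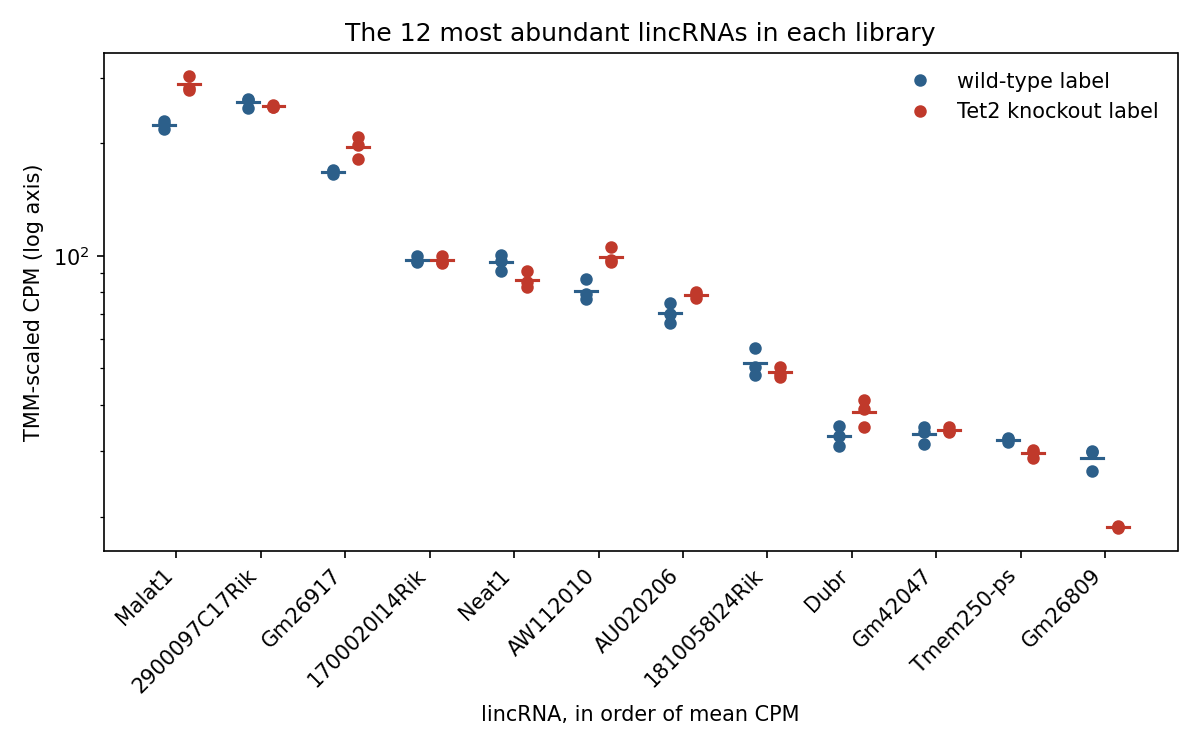
TMM-scaled CPM (log axis) of the 12 most abundant lincRNAs in each library, in order of mean level. Points are single libraries, blue for the wild-type label and red for the Tet2 knockout label, and bars the means of 3; the red points lie above the blue ones for Malat1, Gm26917, AW112010 and AU020206 and below them for Tmem250-ps and Gm26809.

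The larger rises were all in rare lincRNAs. The row 4930589L23Rik (chr3:79568192-79572580, plus strand) was counted 25, 32 and 27 times under the wild-type label and 74, 72 and 70 times under the knockout label, and no library overlapped. Its mean level moved from 2.12 ± 0.459 to 5.20 ± 0.0919 CPM, a log2 change of 1.31 (SE 0.21, 2.47-fold, edgeR adjusted p = 7.93e-08), called in all 14 settings. It starts 396 bases from Fnip2, a partner of folliculin, on the other strand, and Fnip2 moved by 0.09 (adjusted p = 0.00306). Its start region, chr3:79567942-79568241 (GRCm38.p6, plus strand, RefSeq), is shown as one dense in CpG, with 18 in capitals.
4930589L23Rik: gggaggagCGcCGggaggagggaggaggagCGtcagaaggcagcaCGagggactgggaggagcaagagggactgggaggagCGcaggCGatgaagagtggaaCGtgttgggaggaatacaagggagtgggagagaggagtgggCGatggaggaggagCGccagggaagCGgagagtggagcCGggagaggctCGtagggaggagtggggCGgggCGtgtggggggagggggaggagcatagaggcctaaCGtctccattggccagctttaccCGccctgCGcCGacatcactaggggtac

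The row 1110002J07Rik (chr10:66912489-66920258) was counted 43, 20 and 24 times under the wild-type label and 63, 66 and 73 times under the knockout label. Wild-type label replicate 1 was the nearest to the knockout label libraries, without reaching them, and the log2 change was 1.16 (SE 0.21, adjusted p = 2.79e-06 with edgeR). Gdap10 lies inside the span of Nampt, the enzyme of the NAD salvage pathway, on the same strand and without shared exon bases. Reads of unspliced Nampt RNA there cannot be told apart from those of Gdap10, and their part was not tested. Gdap10 had counts of 47, 23 and 26 against 59, 60 and 64. Its log2 change was 0.88 (adjusted p = 3.79e-04), while Nampt itself had 370 ± 3.62 and 367 ± 6.81 CPM (log2 change −0.01, adjusted p = 0.819). Gm13710 had the same direction (1.28, adjusted p = 0.00388), but its groups overlapped, with 8, 4 and 14 counts against 29, 25 and 12, and the call was lost without knockout label replicate 1 (0.0608).

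The row 9330175E14Rik (chr8:94422898-94435103, minus strand) was counted 27, 39 and 35 times under the wild-type label and 65, 76 and 60 times under the knockout label (log2 change 0.94, SE 0.20, edgeR adjusted p = 7.81e-05). Its neighbour Nlrc5, the transactivator of MHC class I genes, starts 747 bases away on the other strand and went from 86.1 ± 3.21 to 124 ± 2.70 CPM (log2 change 0.53, adjusted p = 1.86e-21). Gm26637 (chr17:78882042-78892500) went from 2.01 ± 0.379 to 3.37 ± 0.202 CPM (log2 change 0.75, adjusted p = 0.00587), a call lost without wild-type label replicate 3 (0.0591). It faces Eif2ak2, the double-stranded RNA sensor PKR, which rose by 0.37 (adjusted p = 3.25e-18). The exons of the lincRNAs share 1.31% and 11.4% of their bases with genes of the opposite strand. The kit does not mark strand as labelled, so reads of the 2 genes of a pair cannot be told apart in the shared bases. Unspliced RNA of the opposite gene could also be counted outside the shared bases where the spans overlap. Its part was not tested.

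The row 2310001H17Rik (chr6:129208412-129238725) had 31, 26 and 33 counts under the wild-type label and 46, 65 and 61 under the knockout label, a log2 change of 0.88 (SE 0.22, adjusted p = 4.48e-04 with edgeR). Its neighbour Cd69, an early activation marker, has its start 36711 bases away on the same strand and rose by 0.66 (adjusted p = 4.55e-13). AC125351.1, Gm6093 and Bvht, a regulator of cardiac commitment, were also called higher. Their log2 changes were 0.74, 0.94 and 0.66 and their adjusted p-values 0.0232, 0.0203 and 0.0382. None of these 3 calls held in every leave-out, and all 3 were lost with DESeq2. Bvht was also lost with limma-voom, without the filter on low counts and at the assumed coefficient of 0.1. AC125351.1 was lost without knockout label replicate 3 (0.195) or wild-type label replicate 2 (0.117), Gm6093 without knockout label replicates 2 (0.0752) or 3 (0.0601) or wild-type label replicates 2 (0.083) or 3 (0.0689), and Bvht without knockout label replicates 1 (0.195) or 3 (0.0938) or wild-type label replicates 2 (0.0536) or 3 (0.156). Gm26813 (0.68, adjusted p = 0.0476) and Gm38399 (0.39, adjusted p = 0.0358), named after their values were seen, complete the 18 that were higher; they were called in 3 and 7 of 14 alternative settings. Gm38399 shares 8.15% of its exon bases with Nav1 on the same strand.

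**Figure D4:**
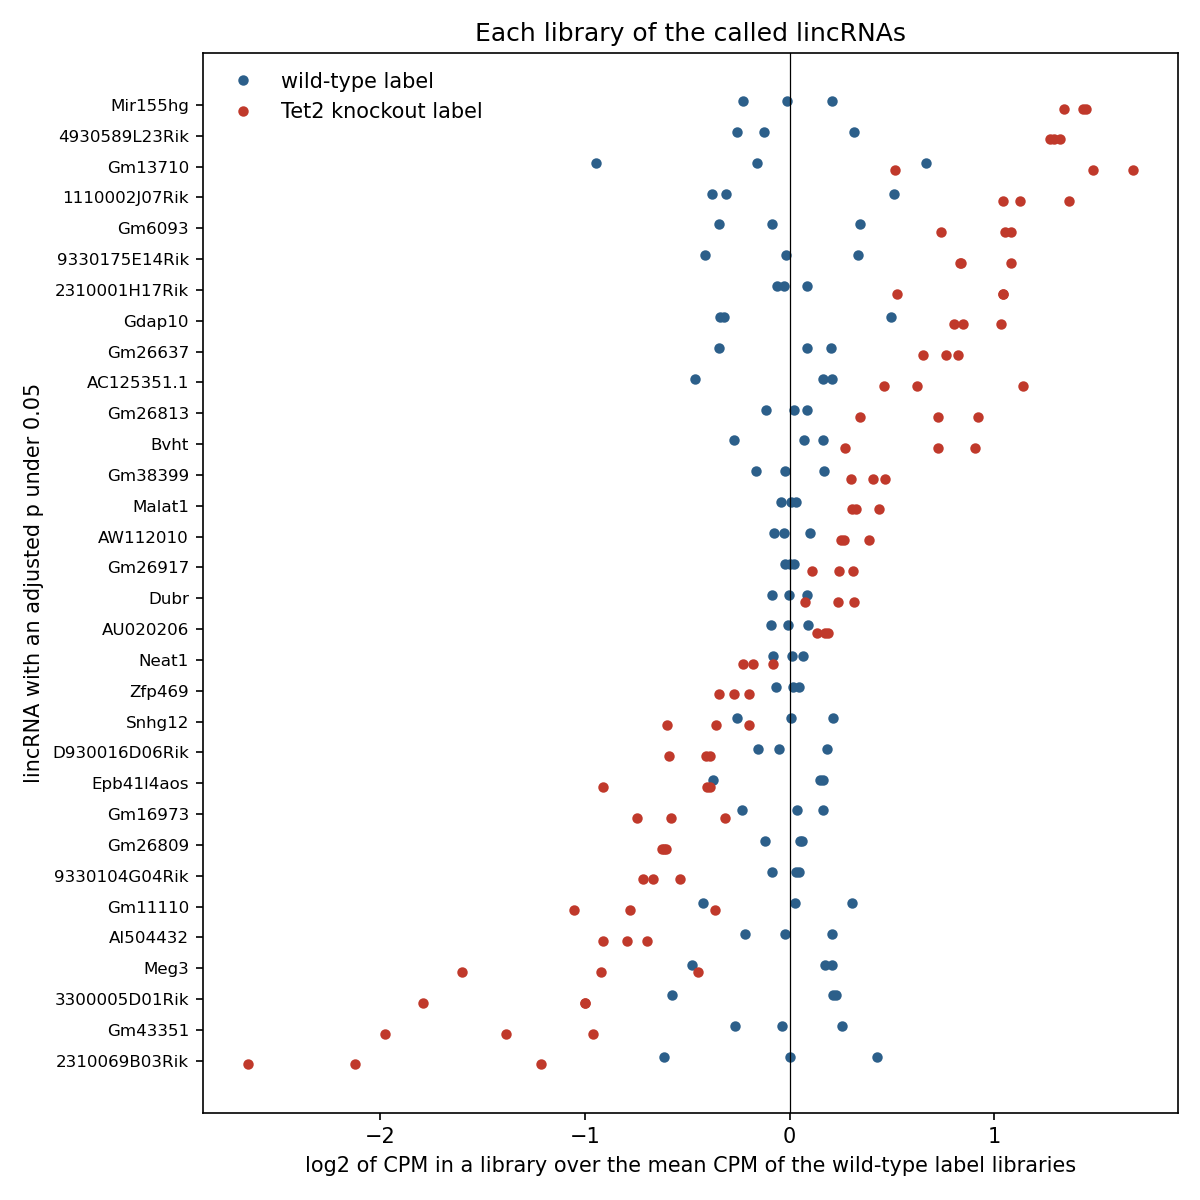
The 32 called lincRNAs in order of their change. Each point is 1 library, placed at the log2 of its CPM over the mean of the wild-type label libraries (horizontal axis), blue for the wild-type label and red for the Tet2 knockout label; red and blue overlap for Gm13710, Dubr, Neat1, Snhg12, Gm11110 and Meg3.

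Among the 14 that were lower, Gm26809 (chr6:18844220-18847360, plus strand) was the most abundant after Neat1. Its levels were 26.5, 30.04 and 29.8 CPM under the wild-type label and 18.8, 19 and 18.7 CPM under the knockout label. The groups were far apart, and the change was −0.61 (SE 0.08, edgeR adjusted p = 2.06e-10), called in all 14 settings. AI504432 (chr3:107039504-107054347) had 14.6, 10.9 and 12.4 CPM against 7.30, 7.81 and 6.74 CPM. Its change was −0.80 (SE 0.12, adjusted p = 2.87e-08), and the potassium channel gene Kcna3, 3335 bases away by start site, went from 4.77 ± 1.33 to 2.93 ± 0.361 CPM (−0.71, adjusted p = 0.00235). Zfp469, a zinc-finger gene that RefSeq holds to be coding, fell by 0.27 (adjusted p = 0.00648), a call lost at the assumed coefficient of 0.1 (0.194).

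The largest falls were at the lowest levels. The row 2310069B03Rik, named after its values were seen, was counted 25, 16 and 12 times under the wild-type label and 3, 8 and 4 times under the knockout label (log2 change −1.85, SE 0.45, edgeR adjusted p = 3.60e-04). It reached 10 counts in the wild-type label libraries only, so its selection leaned on the group where it was high. The row 3300005D01Rik had 32, 16 and 32 counts against 14, 8 and 13 (−1.23, adjusted p = 0.00145). Gm43351 (chr3:130874073-130876824, plus strand) had 19, 20 and 16 counts against 5, 10 and 7 (−1.36, adjusted p = 0.00358). Most of its knockout label libraries were below 10 counts, so its selection also leaned on the group where it was high. It was the only lincRNA of the set within 10 Mb of Tet2, at 2.59 Mb. Its nearest coding gene, the ribosomal protein gene Rpl34, has its start 143675 bases away and went from 193 ± 2.69 to 81.6 ± 5.68 CPM (−1.24, adjusted p = 4.33e-52).

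A further 4 falls did not hold in every leave-out, and all 4 were lost with DESeq2 and at the assumed coefficient of 0.1. Their log2 changes and adjusted p-values were −0.45 and 0.0186 for D930016D06Rik, −0.55 and 0.0455 for Gm16973, −0.64 and 0.029 for 9330104G04Rik and −0.69 and 0.0375 for Gm11110. D930016D06Rik was lost without knockout label replicate 1 (0.0882) or wild-type label replicate 2 (0.104). Gm16973 was lost without knockout label replicates 1 (0.165) or 2 (0.108) or wild-type label replicates 1 (0.172) or 3 (0.0993), and in the fit with the replicate number as a block (0.0589). Its call was also lost with limma-voom and without the filter on low counts. The row 9330104G04Rik was lost without knockout label replicates 1 (0.0806) or 3 (0.0641) or wild-type label replicates 1 (0.0746) or 3 (0.0693). Gm11110 was lost without knockout label replicates 1 (0.168) or 3 (0.0933) or wild-type label replicates 2 (0.178) or 3 (0.0849), and without the filter on low counts. Gm16973 and Gm11110 share 15.9% and 8.95% of their exon bases with Mphosph8 and Tnfsf9 on the opposite strand.

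Meg3 (ENSMUSG00000021268, chr12:109541001-109571726, plus strand) is an imprinted RNA of the Dlk1-Meg3 locus, expressed from the maternal chromosome and known to accompany repression of the coding genes there. It was counted 28, 15 and 27 times under the wild-type label and 18, 8 and 12 times under the knockout label. Wild-type label replicate 2 was below knockout label replicate 1, so the groups overlapped. The mean went from 1.72 ± 0.421 to 0.913 ± 0.347 CPM, a log2 change of −0.92 (SE 0.34, edgeR adjusted p = 0.0209). The call was lost without knockout label replicate 2 (0.161) or 3 (0.0571), without wild-type label replicate 1 (0.1) or 3 (0.0862), and with DESeq2 (0.0892). Per kilobase it was the lowest of all 166 lincRNAs.

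The start region of Meg3, chr12:109540746-109541045 (GRCm38.p6, plus strand, RefSeq), is shown because Meg3 belongs to an imprinted locus. Its 13 CpGs are in capitals, and methylation was not measured.
Meg3: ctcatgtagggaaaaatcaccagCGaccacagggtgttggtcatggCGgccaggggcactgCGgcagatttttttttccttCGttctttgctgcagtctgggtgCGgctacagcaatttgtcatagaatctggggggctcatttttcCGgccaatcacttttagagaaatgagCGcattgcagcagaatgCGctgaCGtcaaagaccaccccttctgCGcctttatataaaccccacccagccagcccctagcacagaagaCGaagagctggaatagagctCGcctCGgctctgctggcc
The other genes of the locus were chosen after their values were seen. Rian, a noncoding RNA of another biotype downstream of Meg3, was counted 141, 119 and 141 times against 66, 90 and 61 times, with no overlap (log2 change −0.94, adjusted p = 1.91e-08 with edgeR). Dlk1, the coding gene upstream, had 17, 15 and 13 counts against 4, 0 and 5 (−2.33, adjusted p = 1.31e-04). Mirg had 4, 2 and 3 counts against 0, 0 and 1, and Rtl1, between Meg3 and Rian, had 0, 0 and 0 against 0, 2 and 0, too few to test. Dlk1 is known from stromal and precursor cells. Of the connective tissue markers, 4 of 6 were called: Col1a1 (−0.11), Col1a2 (−0.09) and Dcn (−0.25) lower and Col3a1 (0.11) higher under the knockout label. With their summed level also lower in every knockout label library, the part of such cells in the change of Meg3 was not tested, and in bulk RNA fewer cells of a type and less RNA per cell cannot be told apart. H19, the other imprinted lincRNA of the set, had 11 ± 1.02 and 12 ± 0.618 CPM (0.12, adjusted p = 0.424), and Xist had no count in any library.

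Mir155hg (chr16:84703167-84715245, plus strand), the host of miR-155, an inflammation-induced microRNA of macrophages, had the largest rise of the set. It was counted 6, 6 and 8 times under the wild-type label and 18, 19 and 18 times under the knockout label. The groups were apart, at 0.499 ± 0.0746 and 1.32 ± 0.0539 CPM, with a log2 change of 1.39 (SE 0.41, 2.62-fold, edgeR adjusted p = 0.0033), called in all 14 settings with adjusted p-values of at most 0.0239. It reached 10 counts in the knockout label libraries only, so its selection leaned on the group where it was high.

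The microRNAs inside the lincRNA hosts of this set are shown for the 3 hosts with a change or with a shared seed, as RefSeq (GRCm38.p6) mature sequences with the seed, bases 2 to 8, in capitals.
miR-155-5p: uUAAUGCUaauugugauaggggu
miR-155-3p: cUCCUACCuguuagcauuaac
miR-770-5p: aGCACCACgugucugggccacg
miR-17-5p: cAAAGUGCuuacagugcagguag
miR-20a-5p: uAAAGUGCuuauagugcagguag
miR-19a-3p: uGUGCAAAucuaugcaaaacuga
miR-19b-3p: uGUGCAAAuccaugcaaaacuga
The arms of miR-155 lie in an exon of Mir155hg (chr16:84714143-84714165 and chr16:84714182-84714202), and miR-770 in an exon of Meg3. In Mir17hg, host of a cluster known for promoting proliferation, miR-17-5p and miR-20a-5p share a seed, as do miR-19a-3p and miR-19b-3p. Mir17hg itself had 27, 14 and 21 counts under the wild-type label and 18, 11 and 13 under the knockout label (−0.61, adjusted p = 0.146). Mir142hg, host of a microRNA of blood cells, had 11, 25 and 13 counts against 10, 26 and 18 (0.08, adjusted p = 0.878). Mature microRNAs were not measured here.

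Across a list of 21 RNAs taken as microRNA hosts, of any biotype, 12 were tested and 5 called, a share near the 40.9% of all genes, with a median log2 change of 0.02 beside −0.003 for all genes. The list was not exact. No RefSeq microRNA was found within the listed Gm37494 or Pvt1 on their strand. Hosts of the set such as 4833445I07Rik (miR-191 and miR-425) were not listed. Mir155hg and Mir99ahg (1.59, adjusted p = 6.75e-05) were higher. Meg3, Mir22hg (−0.28, adjusted p = 0.00121) and Rian were lower.

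Small nucleolar RNA hosts carry the guides of ribosomal RNA modification in their introns, and their spliced RNAs are often destroyed by nonsense-mediated decay. Of 13 tested, 7 were called, all of them lower under the knockout label, beside 40.9% called and 19.2% lower over all genes. The median log2 change was −0.28, and among the 6 that did not pass Snhg4 and Snhg8 had small positive values (0.02 and 0.01). Only 2 of the 7 are lincRNAs of the set. Snhg12 was counted 112, 111 and 92 times under the wild-type label and 88, 97 and 69 times under the knockout label (−0.36, edgeR adjusted p = 0.0379), and the groups overlapped. Epb41l4aos had 3.41, 4.95 and 4.89 CPM against 3.37, 3.34 and 2.35 CPM (−0.54, adjusted p = 0.0257), with wild-type label replicate 1 next to the knockout label libraries. Snhg12 was lost without knockout label replicates 1 (0.0773) or 3 (0.195) or wild-type label replicates 1 (0.0794) or 2 (0.204), and Epb41l4aos without knockout label replicate 3 (0.161) or wild-type label replicates 2 (0.0923) or 3 (0.117). Both were also lost with DESeq2 and at the assumed coefficient of 0.1, and Snhg12 without the filter on low counts.

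The remaining snoRNA hosts of the set did not pass. Snhg6 had 11.2 ± 0.678 and 9.25 ± 2.14 CPM (−0.28, adjusted p = 0.0632), but it passed without knockout label replicate 2 (−0.41, adjusted p = 0.0142), without wild-type label replicate 2 (0.0452), with upper-quartile scaling (0.0445) and with limma-voom (0.0475). Snhg18 had 3 ± 0.0734 and 2.20 ± 0.29 CPM (−0.45, adjusted p = 0.12), and Snhg20 had 3.97 ± 0.586 and 3.94 ± 0.879 CPM. The called hosts of other biotypes were Snhg15 at −0.81 (adjusted p = 1.14e-07), Snhg1 at −0.48 (1.71e-05), Snhg5 at −0.41 (0.00126), Gas5 at −0.28 (5.70e-05) and Zfas1 at −0.21 (0.0311), all with edgeR.

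In a list of lincRNAs and related RNAs described in macrophages, 14 were tested and 8 called, 5 higher and 3 lower, beside 40.9% called, 21.6% higher and 19.2% lower over all genes. The median log2 change was 0.09. The higher ones were AW112010, F630028O10Rik (0.60), Gm16685 (0.51), Malat1 and Mir155hg. The lower ones were Gas5, Meg3 and Neat1. A further 3 well-studied regulators did not pass. Ptgs2os2, known as lincRNA-Cox2, had 3.62 ± 1.20 and 3.03 ± 0.264 CPM (−0.25, adjusted p = 0.386) beside a Ptgs2 of 147 ± 2.30 and 151 ± 1.60 CPM. Gm14005, known as Morrbid, a regulator of the lifespan of myeloid cells, had 8.22 ± 1.03 and 7.84 ± 1.28 CPM (−0.06, adjusted p = 0.772). Lncpint had 0.974 ± 0.185 and 1.20 ± 0.331 CPM (0.30, adjusted p = 0.538).

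A set of 3 lincRNAs with well-studied neighbours showed no called change although the neighbour was called. Trp53cor1, known as lincRNA-p21, had 1.07 ± 0.465 and 0.84 ± 0.186 CPM (−0.32, edgeR adjusted p = 0.554), while Cdkn1a fell by 0.25 (1.42e-13). Pvt1 had 2.58 ± 0.174 and 2.05 ± 0.335 CPM (−0.34, adjusted p = 0.288), and Myc rose by 0.19 (0.00709). AI427809, known as MeXis and named after its values were seen, had 2.16 ± 0.713 and 1.93 ± 0.259 CPM (−0.14, adjusted p = 0.717). Its nearest coding gene, the cholesterol exporter Abca1, has its start 110337 bases away and fell from 755 ± 40.1 to 546 ± 7.67 CPM (−0.47, adjusted p = 1.51e-28).

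Among 16 tested RNAs of a list drawn up for nuclear or chromatin function, of which 9 are lincRNAs of the set, 7 were called, a share near the 40.9% of all genes. The 16 include the cytoplasmic Norad (2900097C17Rik) and Gm26917, whose value is uncertain. Oip5os1, the RefSeq name of 1700020I14Rik, was listed but not matched by that name, so it is not among them. Malat1, Gm26917 and the imprinted antisense RNAs Kcnq1ot1 (0.68, adjusted p = 4.87e-04) and Airn (0.61, 0.0146) were higher, and Neat1, Meg3 and Rian lower, with a median of 0.11. Ftx, from the X-inactivation centre, had 1.80 ± 0.155 and 1.91 ± 0.502 CPM (0.10, adjusted p = 0.816).

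The genes for proteins of the bodies where Malat1 and Neat1 reside changed by at most 0.17 where they were called. Of 19 tested, 9 were called, beside 40.9% of all genes and 42.9% of protein-coding genes, with a median log2 change of −0.05. Nono, a core paraspeckle protein, rose by 0.11 (edgeR adjusted p = 9.38e-04), as did Smarca4 (0.09) and Srrm2 (0.07). Those that fell included Ewsr1 (−0.17), Taf15 (−0.16), Srsf3 (−0.12), Son (−0.09) and Srrm1 (−0.08), and Sfpq, needed for paraspeckles, stood at 249 ± 0.815 and 249 ± 3.96 CPM. Of 28 tested genes of nuclear RNA decay and end processing, 10 were called, all lower, beside 40.9% called and 19.2% lower over all genes, with a median of −0.15. They included Exosc8 of the RNA exosome (−0.39, adjusted p = 1.24e-04), its helicase Skiv2l2 (−0.15, 0.00511), Upf1 of nonsense-mediated decay (−0.15, 5.75e-04) and Rpp38 of RNase P (−0.71, 4.27e-05).

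The position of the lincRNAs among other genes was then compared with their changes. Of the 166, 137 overlapped no other row with a mean of 10 or more counts, and 25 of the other 29 shared exon bases with one. The nearest start site of a tested protein-coding gene lay within 50 kb for 117 and within 1 kb for 36, of which 24 were divergent. The median lincRNA had 3 exons and 2420.5 bases, and lengths ran from 269 to 20771 bases.

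The lincRNAs and their nearest coding genes moved the same way somewhat more often than not. The signs matched in 102 of 160 pairs (63.7%), with Pearson r = 0.422 and Spearman rho = 0.316 across the pairs, which come from the same 6 libraries and hold 155 different coding genes. The share was 63.7% in 113 pairs within 50 kb (r = 0.281) and 63.8% in 47 pairs farther apart (r = 0.569). Among the 24 divergent pairs within 1 kb, 18 had matching signs (75%, r = 0.567). In the 32 pairs of a called lincRNA, 26 had matching signs (81.2%, r = 0.691, rho = 0.757). The neighbour was called too in 18 of the 32, against 71 of all 160 pairs and 42.9% of protein-coding genes, and 17 of the 18 matched in sign. The exception was Bvht, higher, with Pcyox1l, lower by 0.34. Some called lincRNAs share exon bases with the neighbour itself. Within 50 kb, 16 of 19 called lincRNAs matched their neighbour in sign, and 12 of 15 (80%) where no exon bases were shared with it. Both genes were called in 10 of the 19 pairs and in 7 of the 15, all matching in sign. These values are descriptions with no test.

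**Figure D5:**
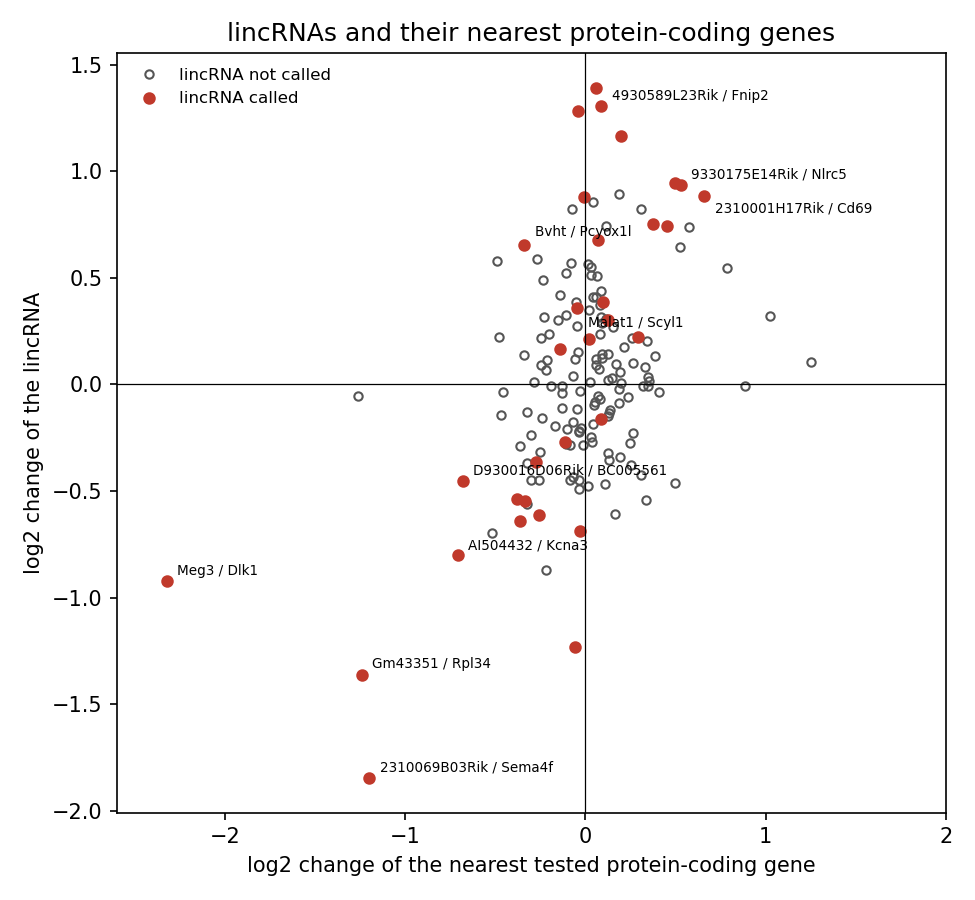
Log2 change of each tested lincRNA (vertical axis) against that of the nearest tested protein-coding gene (horizontal axis), both as knockout label minus wild-type label, for 160 pairs. Filled red points are the 32 called lincRNAs and some pairs are named as lincRNA / coding gene; 26 of the 32 lie in the upper right or lower left.

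The start regions of the lincRNAs were also searched on both strands for 6 motifs of macrophage and stress factors, counting a promoter once however many matches it held. The interferon-factor core GAAANNGAA was in 11 of 80 (13.8%) lincRNA promoters and in 8.56% of all 32851 promoters of the same length. The AP-1 site TGANTCA was in 11 (13.8%) against 7.81%, and the E-box CACGTG in 10 (12.5%) against 7.15%. The PU.1 site GAGGAAGT was in 7 (8.8%) against 3.2%, the STAT site TTCNNNGAA in 4 (5%) against 8.3%, and the NF-kB site GGGANTTTC in 0 against 1.11%. Motifs can overlap one another, a match is only a description of sequence, and the differences in share were not tested.

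Members just inside the count threshold were B230303O12Rik, with 3, 10 and 4 counts under the wild-type label and 11, 4 and 11 under the knockout label, and Gm26682, with 6, 3 and 13 against 10, 10 and 3. Just outside it were Gm36738, with 16, 17 and 9 counts against 9, 8 and 6, and 6720427I07Rik, with 10, 9 and 21 against 6, 6 and 5.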

How the data were processed

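RNA-seq libraries of MSU-treated bone-marrow-derived macrophages were analysed, with 3 libraries for each genotype label. Per the submitters' processing notes, fastp, STAR and featureCounts were used with mm10, with no version given. The deposited values are raw read counts per gene. Whether counting used strand is not stated, and reads shared by near-identical copies are uncertain. Groups came from the genotype labels, and every count column matched a sample by name.

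The lincRNAs, the gene lists and the rule for named genes were chosen with earlier results of these data known. The rule named Malat1, Neat1 and Meg3, the 10 most abundant lincRNAs, the 10 largest rises and falls among called ones whose average log2 CPM was 0 or more, those with a proper symbol, list members, those within 10 Mb of Tet2 and those at the count threshold. Others are said to have been named after their values were seen. The values of 1 listed gene are not reported here.

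In R 4.3.3, edgeR 4.0.16 kept genes with filterByExpr (minimum count 10), scaled libraries by TMM and ran the robust quasi-likelihood test on all 13175 kept genes with genotype label as the single factor. Adjustment was by Benjamini-Hochberg over all of them, and a gene under 0.05 is called. Log2 changes (prior count 0.125) are knockout label minus wild-type label. The code was tested on simulated data. Alternatives were DESeq2 1.42.0, voom in limma 3.58.1, scaling by RLE or upper quartile, no filter, at least 1 CPM in 3 libraries, the replicate number as a block, an assumed coefficient of variation of 0.1, and each library left out. All 166 identifiers were in GENCODE M21 and 162 had the same coordinates. Figures used matplotlib 3.10.9.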

Additional observations from a re-analysis of the deposited data

How the results depend on the processing

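The 32 called lincRNAs became 20 with DESeq2 (13 higher, 7 lower) and 17 at an assumed coefficient of variation of 0.1 (11 higher, 6 lower), where the count over all genes went from 5385 to 1885. Under the other scalings, filters and limma-voom it lay between 27 and 33. It was 26 of 97 for lincRNAs with 20 counts in 3 libraries and 26 of 132 for those overlapping no other expressed gene, and without single libraries between 24 and 30 (4725 to 5177 over all genes). Upper-quartile scaling turned the split over all genes from 2852 higher and 2533 lower to 2599 and 2883. Of the 32, 12 were called in every setting that tested them. With the replicate number as a block, 30 lincRNAs and 5259 genes were called; of the 51 named lincRNAs tested, Gm16973 lost its call (adjusted p 0.0589). Same-numbered libraries correlated in their deviations with 0.00365, −0.00646 and −0.0206, and differently numbered ones with −0.0145 to 0.0216. With 3 libraries in a group, these values cannot decide whether the numbers pair the libraries. Low counts limit the precision of most lincRNAs, and the estimated coefficient of variation between libraries was 2.63%.

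No called lincRNA among the named ones changed direction. Of the uncalled named ones, 9 changed sign when a library was left out, all without a call. Their log2 changes ranged over the leave-outs as follows: 1700020I14Rik −0.02398 to 0.009421, Snhg20 −0.1313 to 0.1686, Fam120aos −0.2574 to 0.08284, Ftx −0.07113 to 0.2848, Mir142hg −0.264 to 0.589, Gm37494 −0.0641 to 0.0453, Gm14005 −0.1567 to 0.06741, Gm42047 −0.005773 to 0.06972 and Trp53cor1 −0.5836 to 0.02854. The cause was not tested.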
